A study of Rattus norvegicus with 8 samples.

Results

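*H19* and 9 genes of the insulin-like growth factor (IGF) system were examined in the hypothalamus of rats injected with retinoic acid (RA), the hormone-like derivative of vitamin A. The 10 genes were *H19*, the ligands *Igf2* and *Igf1*, the receptors *Igf1r* and *Igf2r*, and the binding proteins *Igfbp2*, *Igfbp3*, *Igfbp4*, *Igfbp5* and *Igfbp7*. They were taken from the 15159 genes that the arrays named, each represented by its brightest probe. *H19* was chosen by its log2 fold change, the largest after RA on these same arrays, so its values are given as a description and carry no test. The other 9 were listed by function, and the question was whether they, and above all the imprinted neighbour *Igf2*, moved with *H19*.

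All rats were male F344N animals carrying no engineered allele, housed in short photoperiod (SD), and injected into the third ventricle of the brain. The labels give all-trans RA at 1e-05 M against a saline vehicle, and give no age. For the experiment with 4 rats per group, the paper's methods give a higher concentration and DMSO in saline. They give the labels' concentration, also with DMSO in saline, for a repeat that supplied tissue for in-situ hybridisation. Hypothalamic blocks with the arcuate nuclei were frozen the next day. RNA of 4 RA-injected and 4 vehicle-injected rats was hybridised with dye-swap to 8 two-colour arrays on 1 slide, each array carrying RA in 1 dye and vehicle in the other. RA was in Cy5 on arrays 1, 3, 6 and 8 and in Cy3 on arrays 2, 4, 5 and 7. The slide had 2 rows, with arrays 1 to 4 in the upper (row 1) and arrays 5 to 8 in the other (row 2), and each row held both dye orders.

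*H19* is a long non-coding RNA that is abundant in the embryo and largely silenced in most tissues after birth. It lies beside *Igf2* and is imprinted in the opposite sense, *H19* being read from the maternal and *Igf2* from the paternal chromosome, with shared enhancers and a shared imprinting control region between them. IGF1 and IGF2 are growth factors that act through the IGF1 receptor, the IGF2 receptor carries IGF2 to the lysosome for breakdown, and the IGF binding proteins hold the ligands in the extracellular fluid. In the adult rodent brain *Igf2* is expressed mainly by the choroid plexus and the leptomeninges, the membranes around the brain.

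Both imprinted transcripts are hosts of a microRNA, and the mature sequences are shown because they are the small RNA products of the 2 loci compared here. They come from RefSeq (GRCr8, minus strand), 5′ to 3′, with the seed (bases 2 to 8) in capitals. The *H19* microRNAs lie at chr1:207161800-207161821 (5p) and chr1:207161766-207161786 (3p), and those of *Igf2* at chr1:207247903-207247924 (5p) and chr1:207247865-207247886 (3p).
rno-miR-675-5p: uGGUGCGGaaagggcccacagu
rno-miR-675-3p: uGUAUGCCcuaaccgcucagu
rno-miR-483-5p: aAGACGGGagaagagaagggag
rno-miR-483-3p: cACUCCUCcccucccgucuugu
The 4 seeds differ from each other, and none is shared with another of the 724 mature rat microRNAs in the table. No array probe was matched to *Mir675* or *Mir483*, so the values below are those of the host transcripts.

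A value below is a log2 ratio of RA over vehicle on 1 array after loess normalisation, or the log2 fold change, which is the mean of the dye orders. Tests were made in limma on 4 means, each joining an RA-in-Cy5 with an RA-in-Cy3 array. Which arrays belong together is not stated in the labels or methods, and each gene was therefore given its least favourable *p* among the 24 possible ways to join them. A gene was called at an unadjusted *p* under 0.01, the threshold of the methods. At that threshold 3.52% of all named genes were called higher and 0.792% lower after RA, and 0 passed an adjusted *p* under 0.05 (1977 had an unadjusted *p* under 0.05). Over 15156 genes each array was most like 1 array of the other dye order, in the couples 1 and 2, 3 and 4, 5 and 8, and 6 and 7 (Pearson *r* 0.474 to 0.702, against at most 0.258 for the next). These couples are a hint from the data that the arrays share RNA, not part of the stated design, and the 8 arrays are not 8 independent rat pairs. In the RA channel, 57.4% to 74.6% of probes per array stood well above background. Of 13 measured markers of hypothalamic neurons, 12 stood well above background on every array in at least 1 channel, and the other, *Kiss1*, did so on 4 arrays in each channel.

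*H19* was higher after RA on all 8 arrays. Its log2 ratio was 1.20, 1.17, 3.09 and 2.91 on arrays 1 to 4 and 2.94, 4.17, 4.18 and 3.19 on arrays 5 to 8. The lowest ratio was a 2.25-fold and the highest an 18.2-fold difference, and the 2 arrays of a couple never differed by more than 0.25. The mean was 2.86 ± 0.40 (SE), or 7.24-fold, the first of 15159 genes, followed by *Cp* at 2.60 and *Hspb1* at 2.21. With plain background subtraction the *H19* mean was 3.66 and with Agilent's own log ratio 3.68. Neither carries the constant offset of 50 that was added to the intensities of the main fit. The *H19* level ran from 7.99 to 11.68 on the log2 intensity scale in RA (median 10.43) and from 6.82 to 7.77 in vehicle (median 7.33). Every RA value therefore lay above every vehicle value, as held for 0.264% of all named genes. The probe was well above background in both channels of every array, but the size of the fold change depended on how background was handled. Its 2 spots per array differed by 0.036 to 0.433.

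The *H19* difference was similar in both dye orders but varied between couples. The RA-in-Cy5 arrays averaged 2.91 and the RA-in-Cy3 arrays 2.80, a difference of 0.11, where the central 95% of genes lay between -0.34 and 0.39. By couple, the mean was 1.18 on arrays 1 and 2, 3.00 on arrays 3 and 4, 3.06 on arrays 8 and 5, and 4.18 on arrays 6 and 7. The spread came from the RA channel, which differed by 3.69 between its lowest and highest array against 0.94 in vehicle. Slide row 1 averaged 2.09 and slide row 2 averaged 3.62.

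**Figure D1:**
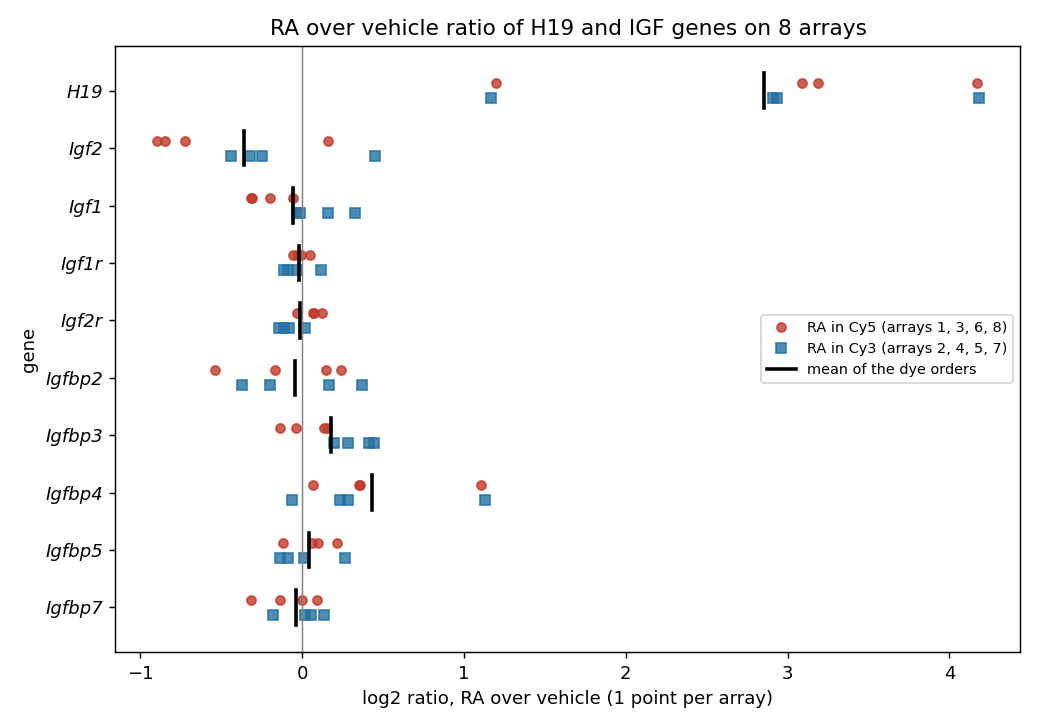
Log2 ratio of RA over vehicle (x axis) for each of the 10 genes (y axis) on the 8 arrays, with red circles for RA in Cy5, blue squares for RA in Cy3 and a black line at the mean. *H19* lies at 1.17 or more on every array, whereas the other 9 genes scatter around 0, between -0.90 and 1.13.

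*Igf2* did not move with *H19*. Its log2 ratio was -0.72, -0.25, 0.16 and 0.45 on arrays 1 to 4, and -0.44, -0.85, -0.32 and -0.90 on arrays 5 to 8. *Igf2* was thus lower after RA on 6 arrays and higher on arrays 3 and 4, which are 1 couple. The mean was -0.36 ± 0.15 (SE), or 0.780 of the vehicle level, and limma gave an unadjusted *p* of 0.0475 (adjusted *p* = 0.456), so *Igf2* was not called. In single pairings limma's *p* went down to 0.00091, with 16 of the 24 pairings under 0.01 and 24 under 0.05. Joining the arrays by the couples above gave 0.0475 in limma, the largest of the 24. The lower values thus came from joining arrays of different couples, and their number is no added evidence of a fall. The level in RA (12.06 to 13.25, median 12.47) overlapped that in vehicle (12.46 to 13.43, median 12.79). Over the 4 couple means, of which 3 were below 0, flipping signs in every possible way (exact permutation test, two-sided) gave *p* = 0.25, and 4 pairs cannot go below 0.125.

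By size alone, the *Igf2* fold change was near the lower end of the array: 15135 of the 15159 genes had a higher log2 fold change. Its value turned on which arrays were read. The couple means were -0.48, 0.31, -0.67 and -0.59 for arrays 1 and 2, 3 and 4, 8 and 5, and 6 and 7. *Igf2* averaged -0.09 in slide row 1 (unadjusted *p* of 0.551 in limma) and -0.63 in slide row 2 (0.000195). Each row gave only 2 means to test, so these *p* lean on the variance that limma borrows from other probes. No couple crosses the rows, so slide row and the rats used cannot be told apart. The RA-in-Cy5 arrays averaged -0.58 and the RA-in-Cy3 arrays -0.14, a dye difference of -0.44 that lay outside the central 95% of genes. With array 3 and any array of the other dye order left out, the fold change lay between -0.58 and -0.43 and the unadjusted *p* in limma between 6.19e-05 and 0.00438, so that *Igf2* was then called lower.

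After removing each dye order's mean, the ratios of *H19* and *Igf2* had a Pearson *r* of -0.031 over the 8 arrays, which come from 4 couples. *H19* was at its highest on arrays 6 and 7, where *Igf2* was low, and *Igf2* was at its highest on arrays 3 and 4, where *H19* was near its mean. Among the other IGF genes, *Igf1r* at 0.64 and *Igfbp4* at 0.59 had the highest *r* with *H19*. The *Igf1r* ratios spanned only 0.233 over the arrays, less than its 10 spots differed within any array (0.317 to 0.6).

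**Figure D2:**
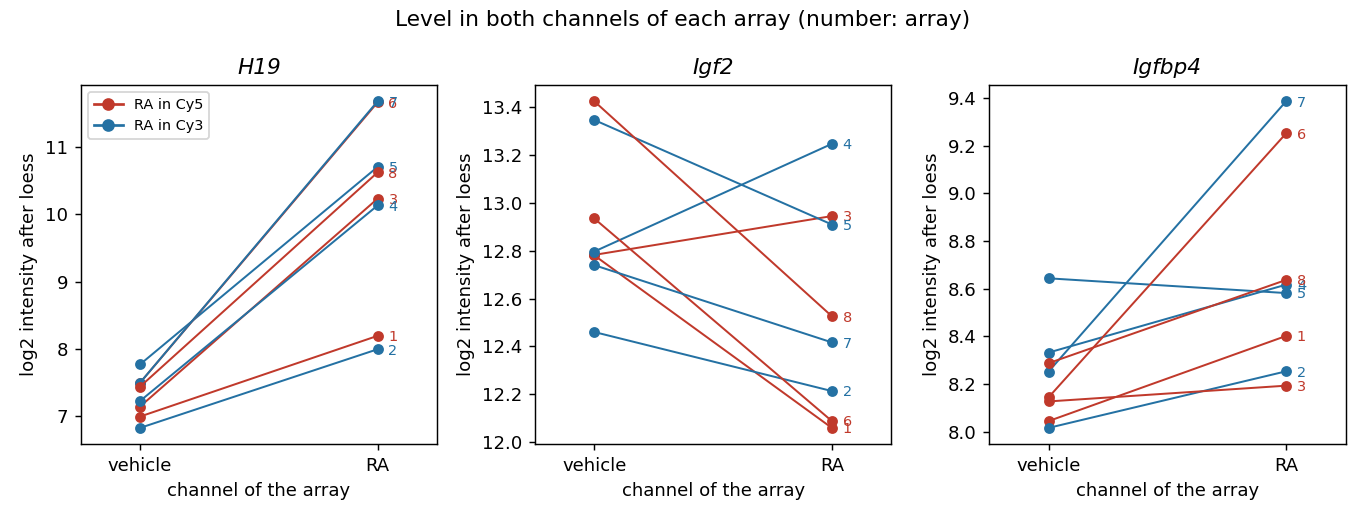
Log2 intensity (y axis) in the vehicle and RA channels (x axis) of each array for *H19*, *Igf2* and *Igfbp4*. Values are after loess and quantile normalisation of average intensity between arrays. Each array has 1 line, with its number at the right and a colour for its dye order. All *H19* lines end at RA values of 7.99 or more, above every vehicle value, the *Igf2* lines slope down on 6 arrays and up on arrays 3 and 4, and the *Igfbp4* lines are steepest on arrays 6 and 7.

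The other ligand, *Igf1*, differed little between RA and vehicle. Its log2 ratio was -0.31, -0.03, -0.20 and 0.16 on arrays 1 to 4, and 0.33, -0.31, -0.01 and -0.05 on arrays 5 to 8. All 4 arrays with RA in Cy5 were below 0 (mean -0.22), against a mean of 0.11 with RA in Cy3, so the dye orders gave opposite signs. The fold change was -0.05 ± 0.06 (SE, adjusted *p* = 0.841 in limma), and a second *Igf1* probe gave -0.11 ± 0.05 (adjusted *p* = 0.513 in limma).

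Neither receptor was called. *Igf1r*, the tyrosine kinase that conveys the growth signal, had ratios from -0.11 to 0.12 and a fold change of -0.02 ± 0.05 (SE, adjusted *p* = 0.937 in limma). *Igf2r*, which is itself imprinted in rodents, ranged from -0.14 to 0.12 with a fold change of -0.01 ± 0.05 (adjusted *p* = 0.967 in limma). These were the narrowest ranges of the 10 genes, and RA and vehicle levels overlapped for both.

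Of the binding proteins, *Igfbp4* and *Igfbp3* had the highest fold changes. *Igfbp4* encodes a binding protein that restrains IGF action until the protease PAPP-A cleaves it. Its ratio was 0.36, 0.24, 0.07 and 0.28 on arrays 1 to 4, and -0.06, 1.11, 1.13 and 0.35 on arrays 5 to 8, so it was above 0 on 7 arrays but exceeded 0.36 only on the couple of arrays 6 and 7. The fold change was 0.43 ± 0.16 (SE), or 1.35-fold, with an unadjusted *p* of 0.0273 in limma (adjusted *p* = 0.387), and RA and vehicle levels overlapped. The *Igfbp4* probe had 1 spot per array, so agreement between spots could not be read. The couple of arrays 6 and 7 averaged 1.12 and the other couples 0.14 to 0.30. With both of these arrays left out the fold change was 0.21 (unadjusted *p* of 0.0252 in limma).

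*Igfbp3*, the main IGF carrier of plasma, had ratios of -0.04, 0.41, 0.15 and 0.28 on arrays 1 to 4, and 0.20, 0.14, 0.45 and -0.14 on arrays 5 to 8. The fold change was 0.18 ± 0.06 (SE), or 1.13-fold, above 0 on 6 arrays, with an unadjusted *p* of 0.0172 in limma (adjusted *p* = 0.341). All 4 arrays with RA in Cy3 lay above 0 (mean 0.33), against a mean of 0.03 with RA in Cy5, a dye difference of -0.31 that lay within the central 95% of genes.

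*Igfbp2*, the most abundant IGF binding protein of the cerebrospinal fluid, varied between couples with no common direction. Its ratios were -0.17, -0.20, 0.15 and 0.17 on arrays 1 to 4, and 0.37, -0.54, -0.37 and 0.24 on arrays 5 to 8. The couples 1 and 2 and 6 and 7 were thus below 0 in both dye orders and the couples 3 and 4 and 8 and 5 above 0 in both. The fold change was -0.04 ± 0.12 (SE, adjusted *p* = 0.948 in limma), and a second probe gave -0.02.

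*Igfbp5*, a binding protein that attaches to extracellular matrix, ranged from -0.13 to 0.27 (fold change 0.04 ± 0.06, adjusted *p* = 0.889 in limma). *Igfbp7*, a low-affinity member made by blood vessel cells, ranged from -0.31 to 0.13 (fold change -0.04 ± 0.06, adjusted *p* = 0.891 in limma). Its level differed more between arrays than between channels, at 7.38 to 9.01 in RA and 7.69 to 8.99 in vehicle.

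In all, 0 of the 9 genes other than *H19* were called in either direction by limma, beside the 3.52% and 0.792% of all genes above, and 3 had an unadjusted *p* under 0.05 (*Igf2* lower, *Igfbp3* and *Igfbp4* higher). Treating the 8 arrays as independent called *Igfbp3* and *Igfbp4* higher, and the lowest *p* over single pairings called *Igf2* as well. Both settings also called more of all named genes: 1067 higher and 444 lower, and 1480 higher and 810 lower, against 534 and 120. RA and vehicle levels overlapped for all 9, while over all named genes RA lay wholly above vehicle in 0.264% and wholly below it in 0.0198%. The median fold change of the 9 was -0.02, against -0.0046 over all named genes.

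A wider list of the IGF and insulin pathway held 48 further genes, of which 41 had a probe. Of these, 1 rose and 0 fell (limma, 5 at an unadjusted *p* under 0.05), where 3.52% and 0.792% of all genes were called, and the list's median was -0.02. The gene that rose was *Eif4ebp1*, whose product holds back the cap-binding translation factor eIF4E until mTOR phosphorylates it. Its ratio was 0.46, 0.32, 0.24 and 0.75 on arrays 1 to 4, and 1.00, 0.94, 1.09 and 1.15 on arrays 5 to 8. All 8 arrays were above 0, those of slide row 2 furthest, and the fold change was 0.74 ± 0.13 (SE), or 1.67-fold, with an unadjusted *p* of 0.000615 in limma (adjusted *p* = 0.222).

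The next largest fold changes of that list did not pass. *Ghrh*, the hypothalamic hormone that drives growth hormone and hence circulating IGF1, had a fold change of -0.34 ± 0.13 (SE, adjusted *p* = 0.418 in limma), lower on 7 arrays and lowest at -0.94 and -0.88 on the couple of arrays 5 and 8. *Adamts1*, a secreted protease, had 0.27 ± 0.13 (adjusted *p* = 0.518 in limma). Among genes closer to the receptor, the adaptor *Shc1* had 0.24 (adjusted *p* = 0.333 in limma) and the adaptor *Grb14* -0.19 (adjusted *p* = 0.355 in limma). The insulin receptor *Insr* had 0.03, *Irs1* -0.04 and *Irs2* -0.09, and the further binding proteins *Igfbp1* and *Igfbp6* had -0.05 and -0.09, each with an unadjusted *p* of 0.189 or more in limma. *Irs1* stood well above background on only 4 arrays in RA and 3 in vehicle.

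In a list of 30 further imprinted genes, 23 had a probe and 0 passed in limma (4 at an unadjusted *p* under 0.05, median -0.02). Over all named genes 3.52% were called higher and 0.792% lower, so 0 calls in a list this short say little. Its fold changes ran from -0.20 to 0.14. The largest in size were *Nap1l5* at -0.20 ± 0.07 (SE, adjusted *p* = 0.36 in limma), *Usp29* at -0.18 ± 0.06 (adjusted *p* = 0.323 in limma) and *Impact* at -0.16 ± 0.06 (adjusted *p* = 0.364 in limma). *Cdkn1c*, *Phlda2* and *Kcnq1* of the neighbouring imprinted domain had -0.11, -0.02 and 0.01. *Phlda2* stood well above background on only 1 array in RA and 3 in vehicle, so its ratio says little. Of the 23 genes, 16 stood well above background on every array in at least 1 channel.

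The genes around *H19* were taken from the reference order, 10 to either side. Apart from *Igf2*, 7 of these 19 had a probe, and 0 were called (limma, 0 at an unadjusted *p* under 0.05). Beside the 3.52% and 0.792% of all named genes, 0 calls among 7 genes say little. *Th*, which encodes tyrosine hydroxylase of dopamine neurons, had a fold change of -0.49 ± 0.26 (SE, adjusted *p* = 0.557 in limma). Its ratios were -1.39, -1.46, 0.32 and 0.30 on arrays 1 to 4, and -0.04, -0.89, -0.78 and 0.00 on arrays 5 to 8, so the difference lay in the couples 1 and 2 and 6 and 7. *Ctsd*, a lysosomal protease, had 0.13 (adjusted *p* = 0.576 in limma) and *Syt8* -0.08 (adjusted *p* = 0.697 in limma). *Mrpl23* and *Tnnt3*, on the side of *H19* away from *Igf2*, had 0.03 and 0.04, and *Ins2*, beyond *Igf2*, had -0.02. *Tnnt3* stood well above background on only 5 arrays in RA and 2 in vehicle, and *Ins2* on 4 in each. The ratios of these dim genes cannot show whether they changed. Of the 7 genes, 5 stood well above background on every array in at least 1 channel.

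**Figure D3:**
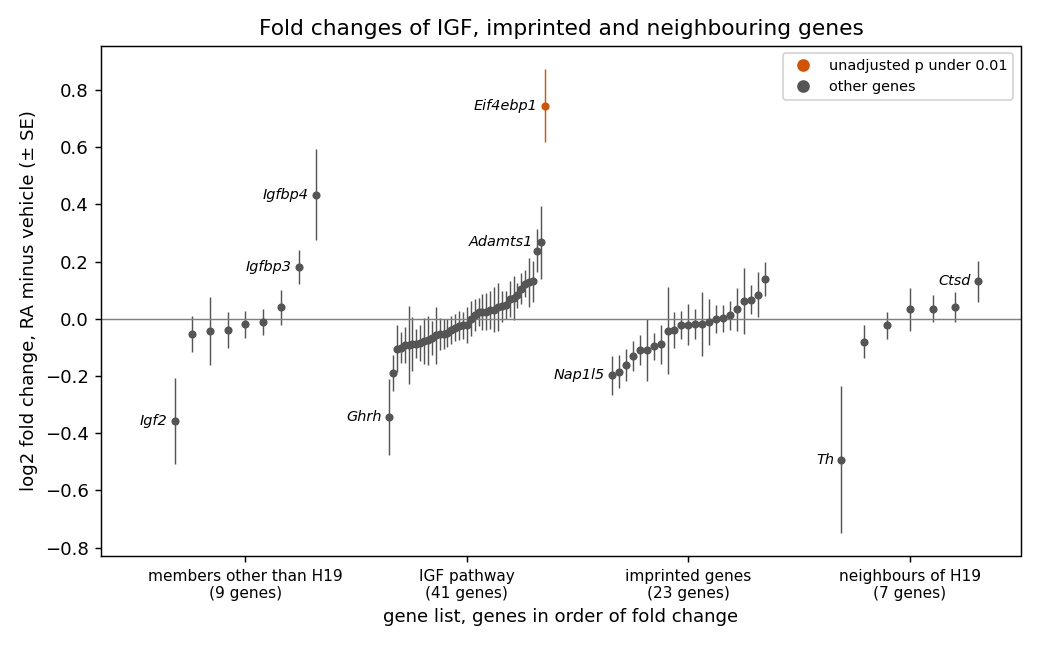
Log2 fold change with its standard error (y axis) for the 9 IGF genes, the IGF pathway list, the imprinted genes and the neighbours of *H19* (x axis, in order of fold change within each list). *Eif4ebp1* (orange, 0.74) is the only gene of the 4 lists with an unadjusted *p* under 0.01, and *Th* (-0.49) and *Igf2* (-0.36) are the lowest points.

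The genes most like *H19* over the 8 arrays, with dye-order means removed, were *Fsd1* (*r* = 0.986), *Creld2* (0.985), *Gfap* (0.983), *Ybx3* (0.975) and *Plpp2* (0.974). In all, 34 of 10041 genes reached *r* of 0.95. A like pattern came with different sizes: *Fsd1* had a fold change of -0.0041, *Creld2* 0.18 and *Plpp2* -0.09, and none of these was called in limma. *Gfap*, the intermediate filament of astrocytes, rose by 1.40 ± 0.20 (SE, unadjusted *p* of 0.000177 and adjusted *p* = 0.222 in limma, higher on 8 of 8 arrays). Its ratios were 0.47, 0.70, 1.36 and 1.35 on arrays 1 to 4, and 1.69, 1.87, 2.20 and 1.57 on arrays 5 to 8, with the couple 1 and 2 lowest and 6 and 7 highest, as for *H19*.

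The genes most like *Igf2* were *Uaca* (*r* = 0.980), *Slc6a20a* (0.979), *Prxl2a* (0.973), *Cpz* (0.973) and *Nat8f5* (0.972), with 22 genes at 0.95 or more. *Cpz* encodes a secreted carboxypeptidase and *Slc6a20a* an amino acid transporter. *Cpz* was -0.36, -0.41, 0.13 and 0.20 on arrays 1 to 4, and -0.44, -0.36, -0.42 and -0.48 on arrays 5 to 8, so that, as for *Igf2*, only arrays 3 and 4 were above 0. These correlations are descriptions over 8 arrays of 4 couples.

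Marker lists of the cells that a hypothalamic block can hold were read beside these genes. Their calls stand beside the 3.52% of all named genes called higher and 0.792% called lower. The lists were made with earlier results of these data known, so no count is independent evidence. Each *r* with a list median was taken after removing each dye order's mean from both. In bulk tissue, fewer cells of a type and less RNA per cell cannot be told apart. Markers of reactive astrocytes rose in 8 of 9 genes measured (limma, unadjusted *p* under 0.01). The list median ran from 0.55 to 0.79 in slide row 1 and from 1.69 to 2.67 in slide row 2, and its summed log2 level was 13.24 to 15.56 in RA and 12.28 to 13.04 in vehicle. The brightest of its genes, *Hspb1* and *Vim*, rose by 2.21 and 0.62, and *Hspb1*, *Cp* and *Gfap* were known from earlier results when the list was made, so the count is no independent evidence. *H19* had an *r* of 0.822 with this list's median, but on arrays 3 and 4 *H19* stood at 3.09 and 2.91 while the list stood at 0.79 and 0.74. The part of reactive astrocytes in the *H19* difference was not tested.

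The *Igf2* ratio had an *r* of 0.801 with the median of the leptomeninges and fibroblast list, close to its 0.799 with the astrocyte and 0.79 with the pericyte and smooth muscle list. Of the leptomeninges and fibroblast list, 0 of 11 genes were called (limma, 0 at an unadjusted *p* under 0.05). The list median was 0.31 and 0.43 on arrays 3 and 4, where *Igf2* was above 0, and -0.59 and -0.63 on arrays 5 and 8. On arrays 1, 2, 6 and 7 it lay between -0.10 and 0.04, while *Igf2* there was between -0.85 and -0.25. The summed log2 level of the list was 13.47 to 14.15 in RA and 13.64 to 14.22 in vehicle, and 10 of its 11 genes stood well above background on every array in at least 1 channel. Its brightest genes, *Col1a2* and *Pdgfra*, had fold changes of -0.16 and -0.11. How much the amount of these membranes in a block sets the *Igf2* ratio was not tested.

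Among the marker lists, the choroid plexus markers had the widest range of summed log2 level between arrays. Their list median was between 0.14 and 0.49 on 6 arrays but -1.37 and -1.42 on arrays 6 and 7, where *Ttr*, the transthyretin gene and the brightest marker, was at -4.48 and -5.11. The summed log2 level was 11.29 to 17.09 in RA and 11.15 to 17.94 in vehicle, 6 of the 12 markers stood well above background on every array in at least 1 channel, and 0 were called (limma, 0 at an unadjusted *p* under 0.05). *Otx2*, the next brightest, had a fold change of -0.25. *Igfbp4* was highest on these same arrays 6 and 7 (*r* = -0.945 with the list median) and *Igfbp2* lowest (*r* = 0.804). *Igf2* had an *r* of 0.258 with this list, and without arrays 6 and 7 its fold change was -0.28 (unadjusted *p* of 0.155 in limma). *H19* was at its highest on arrays 6 and 7, but averaged 2.42 without them. The part of choroid plexus in these values was not tested.

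**Figure D4:**
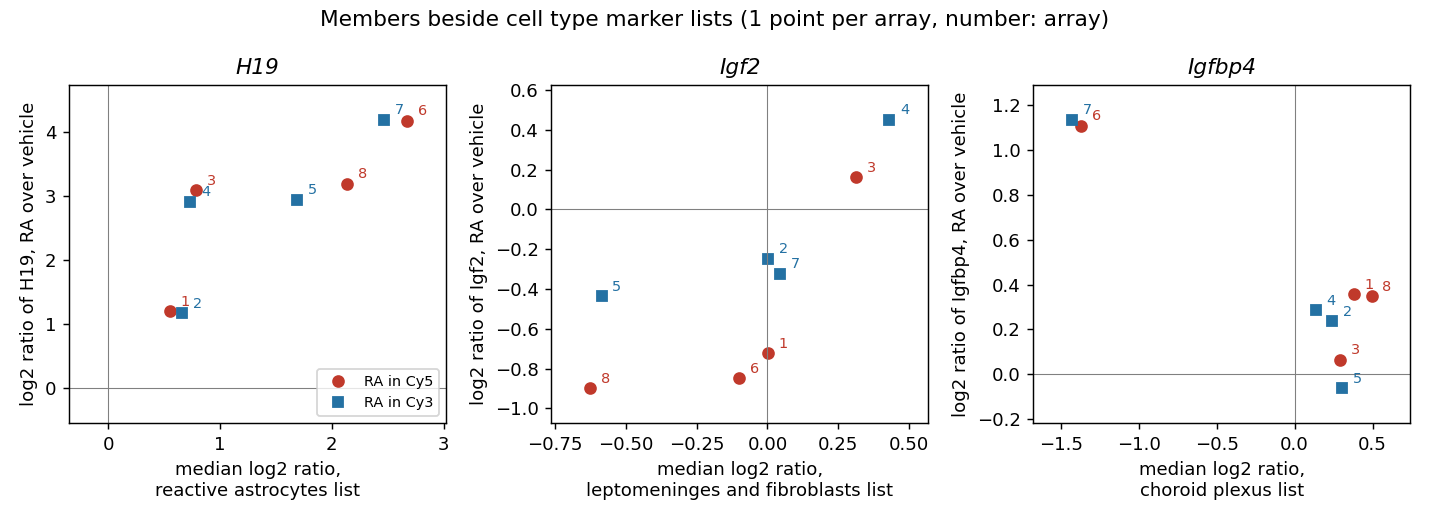
Log2 ratio of *H19*, *Igf2* and *Igfbp4* (y axes) against the median log2 ratio of a marker list (x axes: reactive astrocytes, leptomeninges and fibroblasts, choroid plexus), with 1 point per array, numbered, red circles for RA in Cy5 and blue squares for RA in Cy3. The points run upwards for *H19* and *Igf2*. Their *r* of 0.822 and 0.801 was taken after removing each dye order's mean, which the plotted points keep. The *Igfbp4* panel rests on arrays 6 and 7, which stand apart at -1.37 and -1.42.

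Markers of monocytes and macrophages rose in 5 of 8 genes (limma, unadjusted *p* under 0.01), beside 3.52% of all named genes. The list medians ran from 0.18 to 0.78, with the highest values, 0.78 and 0.72, on arrays 6 and 7. *Igfbp4* had an *r* of 0.881 with this list and *H19* 0.712, where *H19* had 0.755 with the endothelium and -0.706 with the choroid plexus list. Its brightest genes *Lyz2* and *Cd68* rose by 1.30 and 1.07, and the summed log2 level was 13.28 to 15.42 in RA and 12.59 to 13.57 in vehicle. Only 4 of the 8 genes stood well above background on every array in at least 1 channel, and the part of these cells was not tested. Among microglia markers 3 of 9 rose and 1 fell, beside 3.52% and 0.792% of all named genes. *C1qa*, which rose, was at 0.83 and *Tmem119*, which fell, at -0.52.

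In the remaining lists few genes were called, where 3.52% of all named genes were called higher and 0.792% lower. In tanycytes and ependyma 1 of 9 rose (*Vim*), and in the general astrocyte list 1 of 8 rose (*Gfap*) and 1 fell (*Gja1*, at -0.22). In hypothalamic neurons 1 of 13 fell (*Cartpt*, at -0.42), and in oligodendrocytes 1 of 7 fell (*Olig2*, at -0.19). The brightest genes of these lists that were not called had 0.52 (*Crym*), 0.07 (*Aqp4*), -0.22 (*S100b*), -0.10 (*Pmch*), 0.65 (*Avp*) and -0.25 (*Mbp*). In endothelium 0 of 9 were called by limma, and the 2 with an unadjusted *p* under 0.05 were *Slco1c1* at -0.22 and *Cldn5* at -0.14. In pericytes and smooth muscle 0 of 9 were called by limma, and the 2 with an unadjusted *p* under 0.05 were *Tagln* at 0.71 and *Vtn* at -0.17. The brightest genes of these lists that did not reach it were *Kdr* at -0.10 and *Cspg4* at 0.06.

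RA acts through nuclear receptors that bind hexamers such as AGGTCA and AGTTCA. The RefSeq promoters (GRCr8, 300 bases around each gene's start) were searched for these on both strands. Single copies of only these 2 hexamers were counted, so the search cannot show whether RA receptors act at a gene. Of the 10 genes, 9 had an entry (all but *H19*), *Igf2* with 2. AGGTCA was found once, in the *Igf1* promoter, and is present in 16.2% of all 33469 promoters, and AGTTCA was found in none of the 10 entries and is present in 14.5% of all.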

How the data were processed

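RNA of male F344 rats injected with RA or vehicle was measured on 8 two-colour Agilent arrays. The authors deposited scanner output with linear Cy3 and Cy5 intensity values and Agilent's log10 ratio (Feature Extraction 10.7.3.1), and a table of normalised log2 ratios. In their methods, loess-normalised ratios were analysed in limma with the dye-swaps as blocks, and no background correction is named.

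Here, with R 4.3.3 and limma 3.58.1, median signals were corrected by normexp (offset 50), control and outlier spots were dropped, loess was applied within arrays, and spots of a probe were averaged. Each of 30367 probes was tested on 4 pair means, the largest *p* of 24 pairings was kept, and Benjamini-Hochberg adjustment covered all probes. Pairing was not stated, hence each pairing. The number of arrays limits precision. The test recovered known changes in simulated data, but the simulated pairs typically varied less than those of *H19*, *Igf2* and *Igfbp4* here. The simulation therefore cannot say how well changes in such genes are recovered. Well above background means that Agilent marked 0.5 or more of a probe's spots on that array. Accessions gave a name to 18006 probes (59.3%), through RefSeq. For levels in the separate channels, average intensities were also quantile-normalised between arrays, which leaves the ratios unchanged. Each summed level is the log2 of a list's added intensities.

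The 10 genes, lists and tests were chosen with earlier results of these data known. The text names all 10, the 5 genes most like *H19* and *Igf2*, called genes and the 3 largest fold changes of the pathway, imprinted and neighbour lists, and the 2 brightest genes of each of 11 marker lists, except 2 genes that are not reported here. Other genes were chosen after their values were seen. Alternatives (34, of which 16 left out a pair of arrays) covered background, scaling, dim and outlier spots, pairing, dye order, slide row and variance trend, and 1, the pairing of the most alike arrays, was added after seeing the data.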

Additional observations from a re-analysis of the deposited data

Results flagged for a closer look

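The *Igf2* log2 ratio on array 3 was 0.16, whereas the other 3 arrays with RA in Cy5 lay between -0.90 and -0.72, so array 3 stood apart within its dye order. This was 1 of 20 groups searched (10 genes in 2 dye orders), and chance marks about 1 group in 20. Array 4, of the other dye order and most like array 3 over all genes, was also the highest of its dye order for *Igf2*, at 0.45. Leaving array 3 out changed the call of *Igf2*, as given in the results.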

How the results depend on the processing

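*H19* stayed between 2.09 and 3.68 under all 34 alternatives, and *Igf2* stayed below 0 under all of them. *Igf2* was called by limma with the lowest *p* over single pairings (-0.36), with slide row as a block (-0.36), on arrays with RA in Cy5 (-0.58) and in slide row 2 (-0.63). With pairs of arrays left out its fold change ran from -0.58 to -0.25, and it passed in the 4 pairs holding array 3. Among the 9 tested genes the 0 calls became 3 with the lowest *p* of single pairings (*Igf2*, *Igfbp3*, *Igfbp4*) or slide row as a block (the same genes), 2 with independent arrays or pairs as a random block (*Igfbp3*, *Igfbp4*), 1 in each dye order and each slide row alone, and 0 to 2 with pairs of arrays left out. Pathway calls (1) became 0 with Agilent's log ratio, 6 with the lowest *p*, 4 with independent arrays or slide row as a block, 3 with random blocks or slide row 2, 2 in either dye order, and 1 to 2 with pairs left out. *Eif4ebp1* was called in all of these but Agilent's log ratio. Calls among imprinted genes and neighbours (0) became 1 with scaling between arrays or slide row 2, 5 with the lowest *p*, 3 with independent arrays, random blocks or slide row as a block, 2 with RA in Cy5, 4 with RA in Cy3, and 0 to 1 with pairs left out. The pairing of the most alike arrays, added after seeing the data, changed none of these calls.

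Small fold changes turned sign without passing. With RA in Cy3 these were *Igf1* (0.11) and *Igfbp7* (0.0085), with RA in Cy5 *Igf2r* (0.0585), in slide row 2 *Igf1r* (0.0108), and with Agilent's log ratio *Igf2r* (0.0037) and *Igfbp5* (-0.0098). With pairs left out *Igf1r* ran from -0.0542 to 0.0012, *Igf2r* from -0.0374 to 0.0152, *Igfbp2* from -0.159 to 0.0943, *Igfbp5* from -0.0267 to 0.0948 and *Igfbp7* from -0.091 to 0.0285. The cause of these changes was not tested. Counts over all genes moved too: the 534 higher and 120 lower became 112 and 104 with Agilent's log ratio, 150 and 22 with plain subtraction, 1480 and 810 with the lowest *p* of single pairings, 1318 and 569 with slide row as a block, 1067 and 444 with independent arrays, and 834 and 225 with pairs as a random block. These last 4 settings called more of the 9 genes and more of all genes.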
